A study of Mus musculus with 2 samples.

Results

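Natural killer (NK) cells among leukocytes sorted from mouse tumours were taken by a gate on RNA counts, which chose 983 of 18460 cell barcodes, 421 of 9766 in the Sitagliptin library and 562 of 8694 in the Control library. A barcode was a member when it held at least 2 UMIs (unique molecular identifiers, each standing for 1 captured RNA molecule) summed over the 6 genes Ncr1, Klrb1c, Klre1, Klra4, Klra8 and Eomes, none of the T cell genes Cd3d, Cd3e and Trac, and at most 3 UMIs of the 5 macrophage genes C1qa, C1qb, C1qc, Lyz2 and Apoe. The label did not hold for most of these members: 250 in the Sitagliptin library and 444 in the Control library had Klra4 as their sole source of NK gate UMIs, and most of those lacked any UMI of Ptprc, the gene of the CD45 protein by which the cells had been sorted. The members are therefore described below as a "Klra4 set" of 751 barcodes (278 Sitagliptin, 473 Control) with fewer than 2 UMIs over the other 5 genes, an "NK-like" set of 209 barcodes (128 Sitagliptin, 81 Control), and 23 remaining barcodes (15 Sitagliptin, 8 Control). NK-like barcodes held at least 2 UMIs of the 5 genes other than Klra4, at least 1 UMI of Ptprc, at most 1 of Sparc, a matrix glycoprotein gene of stromal and tumour cells, and at most 10 of MHC class II genes. This division was made after the values had been seen.

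Both libraries came from tumours of MC38-OVA cells, a mouse colon carcinoma line carrying the model antigen ovalbumin, grown in wild-type mice. The Sitagliptin mice ate a diet containing sitagliptin, an inhibitor of the dipeptidyl peptidase DPP4, which trims the ends of chemokines and other peptides, and the Control mice a control diet. CD45-positive cells were enriched on magnetic columns and read with a SeekOne DD 5′ single-cell kit. The sources used here do not give the number of mice behind a library, their age or their sex. With 1 library per diet there is no replicate, so no difference between diets could be tested: intervals below are 95% intervals of counting error alone, a ratio past 1.5-fold is a description, and diet, mice and library preparation cannot be told apart. The libraries held 76788699 UMIs (Sitagliptin) and 64139749 UMIs (Control), with medians per barcode of 5158.5 and 5074 and a minimum of 2001 in both. Ptprc was at 0 UMIs in 14.0% of all Sitagliptin barcodes and 22.5% of all Control barcodes. The libraries shared 132 barcode sequences, 16 of them members in 1 library, and none was a member in both.

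NK cells are innate lymphocytes that kill stressed, infected or transformed cells without a rearranged antigen receptor, by releasing perforin and granzymes from granules. Activating receptors such as NKp46 (Ncr1), NK1.1 (Klrb1c) and NKG2D (Klrk1) signal through adaptors that include DAP12 (Tyrobp) and the Fc receptor gamma chain (Fcer1g), and inhibitory receptors for MHC class I hold the cell back. In mice many of these receptors belong to the Ly49 family, encoded by the Klra genes in the NK gene complex on chromosome 6. Most Ly49 receptors, Ly49d (Klra4) and Ly49h (Klra8) among them, are expressed by only some NK cells of an animal. Ly49d and Ly49h are both activating receptors that pair with DAP12, and Eomes is a transcription factor that marks conventional NK cells apart from most type 1 innate lymphoid cells.

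The promoter windows of Klra4 and Klra8 are shown because these are the 2 Ly49 genes of the gate, are close to one another in sequence, and were read in different members. Each window runs from 250 bases before to 50 bases after the annotated start, on the minus strand of chromosome 6 in RefSeq's GRCm38.p6, at chr6:130067222-130067521 for Klra4 and chr6:130129849-130130148 for Klra8. Capitals mark the bases that differ when the windows are aligned at an offset of 1 base.
Klra4: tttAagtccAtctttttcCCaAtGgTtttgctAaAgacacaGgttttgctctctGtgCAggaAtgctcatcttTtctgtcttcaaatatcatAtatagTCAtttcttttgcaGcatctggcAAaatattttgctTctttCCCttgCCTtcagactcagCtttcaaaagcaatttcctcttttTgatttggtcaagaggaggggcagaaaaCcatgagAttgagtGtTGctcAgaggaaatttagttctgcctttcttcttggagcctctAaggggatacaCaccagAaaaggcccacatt
Klra8: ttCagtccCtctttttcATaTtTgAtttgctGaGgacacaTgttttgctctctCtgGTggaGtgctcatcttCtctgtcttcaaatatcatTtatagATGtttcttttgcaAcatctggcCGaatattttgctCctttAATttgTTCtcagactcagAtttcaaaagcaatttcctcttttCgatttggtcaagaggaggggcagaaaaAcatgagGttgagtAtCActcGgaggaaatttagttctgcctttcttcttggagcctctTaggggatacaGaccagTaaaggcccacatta
At that offset 259 of 299 bases were the same (86.6%), and 40 differed. By the same measure no promoter of another Klra gene matched Klra4 over more than 59.1% of its bases, the value of Klra17. The measure allowed no gaps and only offsets of up to 40 bases, so a window with its start annotated elsewhere can score low. A second annotated Klra8 start, whose window overlaps the one printed, scored 34.5%. The values therefore do not rank the Klra promoters by relatedness to Klra4. Neither printed window held an AP-1 motif (TGANTCA, in 7.81% of 32851 promoter windows of this length) or a RUNX motif (TGTGGT, 16.8%). Neither held a T-box core (AGGTGT, 13.7%) or a STAT motif (TTCNNNGAA, 8.30%), and each motif was searched on both strands. In the annotated transcripts, 2.61% of the 60-base windows of Klra4 also occurred in another gene, in each case Klra1, against 27.3% of those of Klra8, which recurred in 5 other Klra genes or pseudogenes. Counts of Klra8 may therefore have been shared or lost among relatives, and no annotated gene overlapped Klra4 or Klra8.

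Klra4 was found in the gate mainly where the other NK genes were not. In the Klra4 set, Klra4 stood at 183 CPM in the Sitagliptin library and 191 CPM in the Control library. CPM are the UMIs of a gene scaled to 1e6 UMIs of the set. Klra8, the other Ly49 gene of the gate, had 0 UMIs in both libraries. The set was limited to fewer than 2 UMIs over genes that include Klra8. Nkg7, a granule membrane protein gene of killer lymphocytes, was seen in 7.91% of Klra4 set barcodes of the Sitagliptin library and 5.71% of those of the Control library, at medians of 20157.5 and 17284 UMIs per barcode. It was seen in 7.48% and 7.83% of the barcodes with at least 10 UMIs of C1qa, C1qb and C1qc and no T cell gene UMI (called high in macrophage genes below), at medians of 8906 and 7487 UMIs, so the Klra4 set, at its greater depth, gave about the same share as cells that should lack the gene. Ptprc was at 0 UMIs in 213 (76.6%) of the Sitagliptin members of the Klra4 set and in 404 (85.4%) of the Control members. The gate itself selected Klra4 and the division selected against the other gate genes, so these levels describe the choice.

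The Klra4 set was set against NK-like barcodes, which had been divided from it on NK genes, Ptprc and Sparc. Of 10547 genes measured, 1856 were more than 2-fold higher in the Klra4 set than in NK-like barcodes of both libraries (17.6%) and 1056 more than 2-fold lower (10%). Crabp1, a retinoic acid binding protein gene, led the higher ones with 476 CPM (Sitagliptin) and 521 CPM (Control), 141-fold (interval 38.9 to 1161) and 173-fold (31.0 to 6818) over NK-like barcodes, where it had 2 UMIs and 1 UMI. Sparc stood at 473 and 498 CPM in the Klra4 set, against 5.08 and 12.1 CPM in NK-like barcodes, which had been chosen for low Sparc. Col3a1, a fibrillar collagen gene, had 63.6 and 52.5 CPM in the Klra4 set and no UMI in NK-like barcodes. Others among the 15 leading genes were Il1rl1 (the IL-33 receptor), Cavin3 (a caveola coat protein), Lamb1 (a laminin chain), Ccn1 and Bgn (matrix proteins), Fosl1 (an AP-1 subunit) and Tm4sf1. The 15 lowest genes were led by Gzmb, Gimap1, Gzmd, Gzmc and Prf1 and also held Xcl1, Gzma, Ptprcap and Klrc1. Epcam, an epithelial adhesion gene, was near 0 in the Klra4 set (0.172 CPM Sitagliptin, 0 Control), and the epithelial keratins Krt8 and Krt18 had no UMI there.

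The same pairing of Klra4 with an absence of Ptprc was present in barcodes that no NK gene had chosen. Among all barcodes with 0 UMIs of Ptprc, 0 of the 3 T cell genes and at most 3 of the 5 macrophage genes, 540 in the Sitagliptin library and 1078 in the Control library, Klra4 was seen in 58.5% and 62.1%, at 113 and 114 CPM. Their median depths were 14891 and 12616 UMIs. In barcodes high in macrophage genes Klra4 was seen in 3.16% (Sitagliptin) and 4.02% (Control) at 6.64 and 8.81 CPM, and in T-like barcodes (defined below) it had 1 UMI (Sitagliptin) and 0 UMIs (Control). Of the barcodes without Ptprc, 216 (Sitagliptin) and 407 (Control) had passed the NK gate. At 2000 UMIs per barcode Klra4 was seen in 19.6% and 16.8% of these barcodes without Ptprc, in 29.7% and 14.8% of NK-like barcodes and in 0.858% and 1.23% of barcodes high in macrophage genes. Of the other Klra genes, Klra2 stood highest in the barcodes without Ptprc of the Sitagliptin library, at 3.09 CPM, Klra2 and Klra6 both stood at 2.27 CPM in those of the Control library, and Klra8 had no UMI in either.

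**Figure D1:**
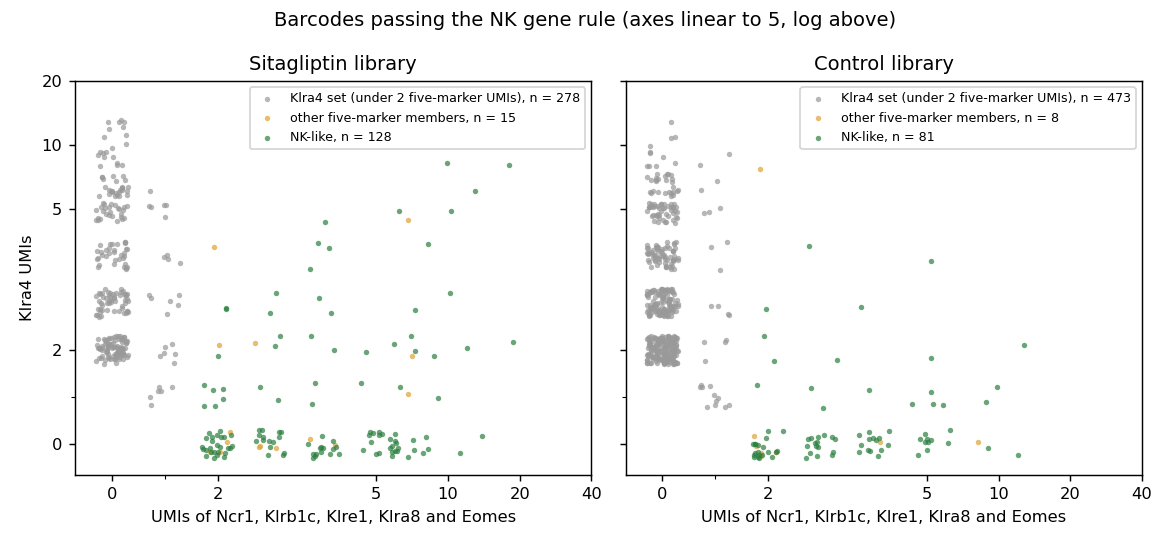
UMIs of the 5 NK genes other than Klra4 (horizontal axis) against UMIs of Klra4 (vertical axis) for each member barcode, Sitagliptin library on the left and Control library on the right, coloured by set. Most members lie along the left edge, with Klra4 UMIs and at most 1 UMI of the other genes (278 of 421 Sitagliptin, 473 of 562 Control).

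Nkg7, which the gate did not read, describes the barcodes on either side of its cutoffs. Members with exactly 2 NK gate UMIs, 124 in the Sitagliptin library and 213 in the Control library, had Nkg7 at 88.6 and 64.0 CPM, and barcodes just outside with 1 UMI, 171 and 335, had 52.6 and 17.5 CPM. The 5 genes without Klra4 were read in the same way among members, where a barcode with 1 UMI of them had to carry Klra4 to enter the gate. Members with exactly 2 UMIs of those genes (41 Sitagliptin, 30 Control) had Nkg7 at 850 and 1054 CPM, against 32.4 and 33.2 CPM in members with 1 UMI (28 and 29), so this step is in part set by the gate. At the macrophage limit, 85 (Sitagliptin) and 78 (Control) members held 3 macrophage gene UMIs, and 65 and 54 barcodes with 4 UMIs fell outside.

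NK-like barcodes carried the NK gate genes in overlapping but incomplete sets. Klrb1c was seen in 83.6% of Sitagliptin and 61.7% of Control NK-like barcodes, at 382 and 308 CPM, and Klre1, a receptor subunit related to NKG2, in 57.8% and 66.7%, at 190 and 259 CPM. Ncr1 was seen in 34.4% and 43.2% (103 and 163 CPM), and Eomes in 32.8% and 32.1% (105 and 118 CPM). Klra8 was seen in 30.5% and 17.3% (211 and 81.4 CPM) and Klra4, which did not serve to choose this set, in 33.6% and 23.5% (193 and 103 CPM). The NK-like median depth was 3672 UMIs (Sitagliptin) and 3776 UMIs (Control), with 1565.5 and 1625 genes per barcode. The name was checked on genes outside the gate: Nkg7 was seen in 97.7% and 96.3% of NK-like barcodes at 1592 and 2093 CPM, Klrd1 (CD94, partner of the NKG2 receptors) stood at 458.5 and 455 CPM, and Tyrobp at 1853 and 2060 CPM. Summed over the 24 NK genes outside the gate, the level was 8318 and 9694 CPM, against 97.0 and 86.0 CPM in the Klra4 set. It was 3580 and 4505 CPM in T-like barcodes and 4918 and 5672 CPM in barcodes high in macrophage genes. Nkg7 was also seen in 88.4% and 89.1% of T-like barcodes, and Klrd1 was less than 2-fold apart from them (below). These 2 genes therefore do not tell NK-like from T-like barcodes.

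Other Ly49 genes were read in NK-like barcodes as well. Klra7 (Ly49g), an inhibitory receptor, stood at 162 CPM (Sitagliptin) and 244 CPM (Control), Klra3 (Ly49c) at 108 and 66.4 CPM, Klra9 (Ly49i) at 57.5 and 24.1 CPM, Klra5 at 42.3 and 48.3 CPM and Klra1 (Ly49a) at 18.6 and 18.1 CPM. At these depths a gene with 0 UMIs in a barcode may still be expressed there. Klra2 alone of the family was highest in barcodes high in macrophage genes in both libraries, at 98.7 and 103 CPM. Klra17 was highest there in the Sitagliptin library only, at 0.949 CPM.

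Markers of other cell types were present in NK-like barcodes to different degrees. Of 14 T cell markers outside the gate, 10 (Sitagliptin) and 8 (Control) had UMIs, summing to 530 and 558 CPM, against 3407 and 3365 CPM in T-like barcodes; Cd5, Cd6 and Foxp3 were at 0 in both libraries. Most of that sum came from the constant regions of the T cell receptor beta chain: Trbc1 was seen in 53.9% and 53.1% of NK-like barcodes (168 and 199 CPM), whereas Cd3g was seen in 3 barcodes of each library and Cd8a in 1 and 0. Mouse NK cells are known to carry transcripts of unrearranged receptor beta constant regions. Of 14 macrophage markers outside the gate, 12 and 10 had UMIs, summing to 1183 and 1502 CPM against 17935 and 20975 CPM in the barcodes high in macrophage genes, with Cd68 and Fcgr1 at 0. Neutrophil markers summed to 33.8 and 151 CPM with 3 and 5 of 8 seen, against 78.1 and 43.0 CPM in T-like barcodes. Tumour and stromal markers summed to 178 and 244 CPM with 4 of 9 seen and Krt8, Krt18, Krt19, Col1a1 and Col3a1 at 0. That was above T-like barcodes, which had the same Sparc limit (65.5 and 73.4 CPM). It was also above barcodes high in macrophage genes (69.0 and 82.2 CPM). Of 10 dendritic cell markers 3 were seen in each library, of 8 B cell markers 3 and 2, of 7 gamma delta T cell markers 3 and 2, and of 6 mast cell markers 1 and 2. B cell markers summed to 72.8 and 87.5 CPM, against 31.1 and 37.6 CPM in T-like barcodes. Dendritic cell markers went the other way, at 66.0 and 48.3 CPM against 73.9 and 129 CPM. The gamma delta marker Trdc was seen in 15.6% and 9.88% of NK-like barcodes, against 1.99% and 2.04% of T-like barcodes. The part of these transcripts in the results below was not tested.

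**Figure D2:**
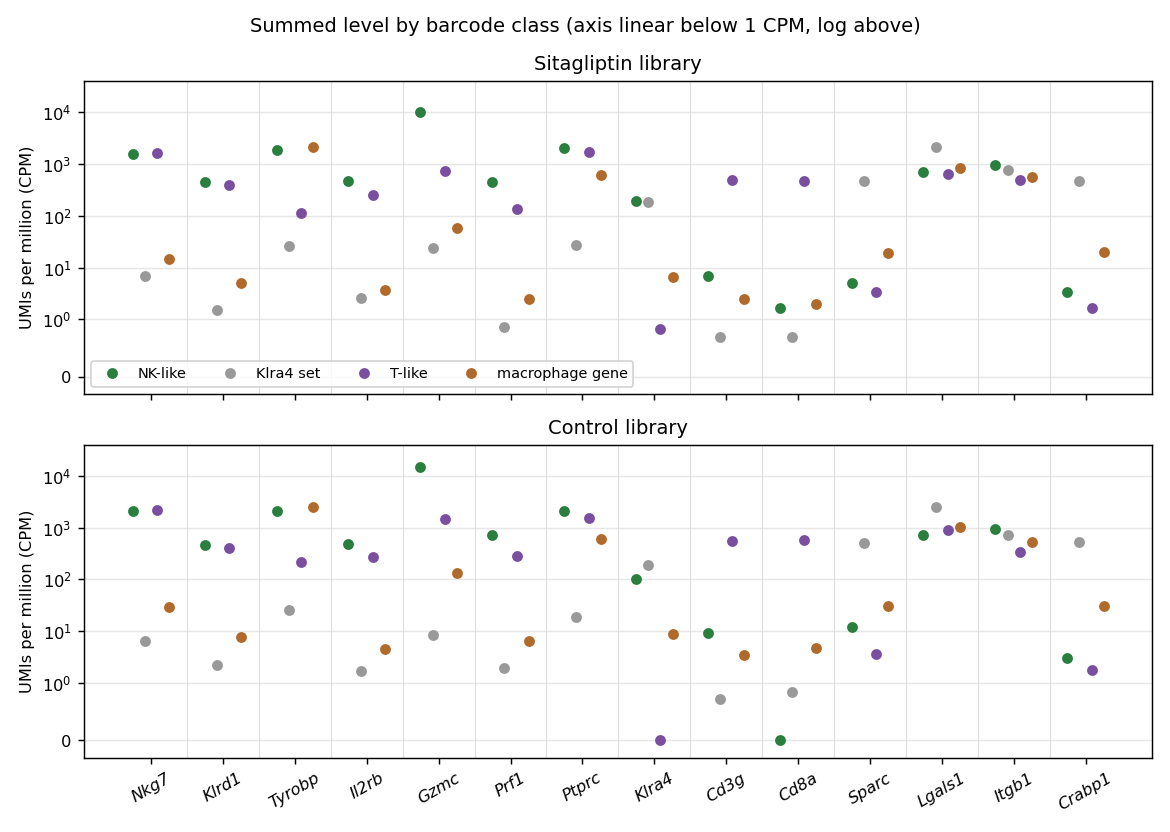
CPM of 14 genes in NK-like barcodes, the Klra4 set, T-like barcodes and barcodes high in macrophage genes, drawn side by side for each gene. The Sitagliptin library is in the upper panel and the Control library in the lower. Nkg7, Klrd1, Tyrobp and Ptprc stand high in NK-like barcodes and much lower in the Klra4 set, where Klra4, Sparc and Crabp1 are high.

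NK-like barcodes were set against T-like barcodes: those with at least 2 UMIs of Cd3d, Cd3e and Trac, at most 1 UMI of the 6 NK gate genes, and the same limits on macrophage genes, Ptprc, Sparc and class II genes (302 Sitagliptin, 147 Control, median 3309 and 2981 UMIs). Because the gate read genes of both classes, these ratios describe the choice and are not tests. Most genes passed no 2-fold difference: of 6022 genes measured, 140 (2.32%) were more than 2-fold higher in NK-like barcodes of both libraries and 257 (4.27%) more than 2-fold lower. Of the 22 NK genes outside the gate that were measured, 11 were more than 2-fold higher and none more than 2-fold lower, with a median log2 ratio of 1.33, against -0.063 over all genes.

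Several receptor and adaptor genes were among those ranked highest, although the receptor lists as a whole were not. Tyrobp stood at 1853 CPM in NK-like and 115 CPM in T-like barcodes of the Sitagliptin library (16.1-fold), and at 2060 and 213 CPM in the Control library (9.67-fold). Fcer1g had 1406 and 103 CPM in the Sitagliptin library (13.6-fold) and 1749 and 295 CPM in the Control library (5.92-fold). Klrb1b, an inhibitory receptor of the NK1.1 family, was 23.8-fold higher in NK-like than T-like barcodes of the Sitagliptin library and 16.7-fold in the Control library, and its relative Klrb1f 13.1-fold and 11.4-fold. Clnk, an adaptor of immune receptor signalling, was 22.9-fold and 23.6-fold higher, and Itga2 (CD49b, recognised by the antibody DX5) 11.3-fold and 8.0-fold higher. Klrd1 and Klrk1, which activated CD8 T cells also carry, were less than 2-fold apart: Klrd1 stood at 458.5 CPM in NK-like and 385 CPM in T-like barcodes of the Sitagliptin library, and at 455 and 403 CPM in the Control library. The activating receptor and signalling list had 4 of 17 genes more than 2-fold higher and 4 lower, with a median log2 of -0.19. The shares over all genes were 2.32% higher and 4.27% lower.

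In the killing machinery several granzymes separated, while Nkg7 did not. Gzmc, a granzyme of strongly activated killer cells, was the most abundant of them in NK-like barcodes, at 10059 CPM against 719 CPM in T-like barcodes of the Sitagliptin library (14.0-fold), and at 14460 against 1470 CPM in the Control library (9.84-fold). Gzmd was 7.10-fold and 7.72-fold higher in NK-like than T-like barcodes, Gzme 6.19-fold and 5.43-fold, and Gzma 5.96-fold and 3.28-fold, in the Sitagliptin and Control libraries. Prf1, the gene of perforin, which opens the target membrane, was 3.30-fold and 2.61-fold higher, and Serpinb9, an inhibitor that protects the killer cell from its own granzyme B, 2.01-fold and 2.38-fold higher. Gzmb differed less, at 1.90-fold (Sitagliptin) and 1.31-fold (Control). Gzmf stood at 1954 CPM in NK-like and 326 CPM in T-like barcodes of the Sitagliptin library, but was level in the Control library, at 1466 and 1452 CPM. Gzmk, a granzyme of memory-like CD8 T cells, went the other way, at 5.08 CPM in NK-like and 78.1 CPM in T-like barcodes of the Sitagliptin library and 3.02 and 73.4 CPM in the Control library. Nkg7 was level, with 1592 CPM in NK-like and 1618 CPM in T-like barcodes of the Sitagliptin library and 2093 and 2161 CPM in the Control library. Of 22 granule and killing genes, 7 were more than 2-fold higher in NK-like barcodes and 1 lower (median log2 0.37), beside 2.32% higher and 4.27% lower over all genes. Granzymes C to G share sequence: 14.6% of the 60-base windows of Gzmd, 12.6% of Gzme and 14% of Gzmg also occur in another gene, so reads may have been divided among them.

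Several genes outside the killing programme were also much higher in NK-like barcodes. Car2, a cytosolic carbonic anhydrase, stood at 377 CPM against 15.1 CPM in T-like barcodes of the Sitagliptin library (25.0-fold) and at 579 against 14.3 CPM in the Control library (40.4-fold). Rab27b, a small GTPase of granule release, was 26.2-fold (interval 9.64 to 99.8) and 38.7-fold (6.29 to 1596) higher, and the growth factor gene Pdgfa 28.2-fold (9.02 to 142) and 16-fold (5.76 to 61.7) higher, each on at most 4 T-like UMIs in either library. Vegfa, the vascular growth factor gene, stood at 323 CPM in NK-like and 38.6 CPM in T-like barcodes of the Sitagliptin library (8.37-fold) and at 281 and 55.5 CPM in the Control library (5.05-fold). Kit, the stem cell factor receptor, was 9.54-fold and 9.69-fold higher, and Aoah, a lipase that inactivates endotoxin, 14.1-fold and 12.6-fold higher. The remaining genes among the 15 highest by the ranking were Ctnnd2, Eya2, Gas7 and Rbpms.

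Cytokine and regulatory genes divided the classes in both directions. Xcl1, the chemokine that draws cross-presenting dendritic cells, stood at 514 CPM in NK-like and 140 CPM in T-like barcodes of the Sitagliptin library (3.67-fold) and at 561 and 109 CPM in the Control library (5.14-fold). The transcription factor Irf8 was 3.22-fold and 2.76-fold higher in NK-like barcodes of the Sitagliptin and Control libraries. Ccl3 stood at 15.2 and 24.1 CPM in NK-like barcodes of the Sitagliptin and Control libraries, against 51.2 and 87.7 CPM in T-like barcodes, and Csf1 at 30.5 and 15.1 CPM, against 180.5 and 158 CPM. The checkpoint receptor Havcr2 (TIM-3) had a NK-like to T-like ratio of 0.0658 (Sitagliptin) and 0.0521 (Control), Pdcd1 (PD-1) of 0.241 and 0.122 and Lag3 of 0.156 and 0.131. Over all genes 2.32% were more than 2-fold higher in NK-like barcodes and 4.27% lower. Of 12 inhibitory receptors measured 5 were more than 2-fold lower and none higher (median log2 -0.48). Of 12 cytokines and chemokines 2 were higher and 5 lower (-1.08), and of 16 cytokine receptors none was higher and 4 were lower. Il7r (0.0919 and 0.0518), Il2ra (0.256 and 0.177), Cxcr6 (0.0782 and 0.111) and Prdm1 (0.147 and 0.135) were all lower in NK-like barcodes. Genes of ILC1 and tissue residency had 2 higher and 5 lower of 11 (median log2 -0.94).

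Cell cycle and interferon response genes were on balance lower in NK-like than T-like barcodes. Over all genes 2.32% were more than 2-fold higher in NK-like barcodes and 4.27% lower. Of 25 cell cycle genes measured 8 were more than 2-fold lower and none higher (median log2 -0.81), and Mki67 stood at 162 CPM in NK-like and 264 CPM in T-like barcodes of the Sitagliptin library and at 127 and 415 CPM in the Control library. After each barcode had been thinned to 2000 UMIs, 14.8% of Sitagliptin and 17.3% of Control NK-like barcodes held at least 2 UMIs over 14 cell cycle genes, against 23.8% and 40.1% of T-like barcodes. Of 16 type I interferon response genes 5 were more than 2-fold lower (median log2 -0.72), with Isg15 at 0.432 (Sitagliptin) and 0.421 (Control). Endoplasmic reticulum stress genes lay slightly the other way, with 14 of 16 above 1 in both libraries, none past 2-fold, and a median log2 of 0.45. Hspa5, the main chaperone of that compartment, was 1.49-fold and 1.29-fold higher in NK-like barcodes.

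Dpp4, the target of sitagliptin, had no UMI in the 128 NK-like barcodes of the Sitagliptin library or the 81 of the Control library. By the floor of 3 counts, a count of 0 allows a share of up to 2.34% of the Sitagliptin and 3.70% of the Control NK-like barcodes with a UMI. In T-like barcodes Dpp4 stood at 84.0 CPM (Sitagliptin) and 62.7 CPM (Control) and was seen in 23.8% and 19.0% of barcodes, or 15.6% and 10.9% after thinning to 2000 UMIs. In barcodes high in macrophage genes it was seen in 0.790% and 0.931% after thinning.

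**Figure D3:**
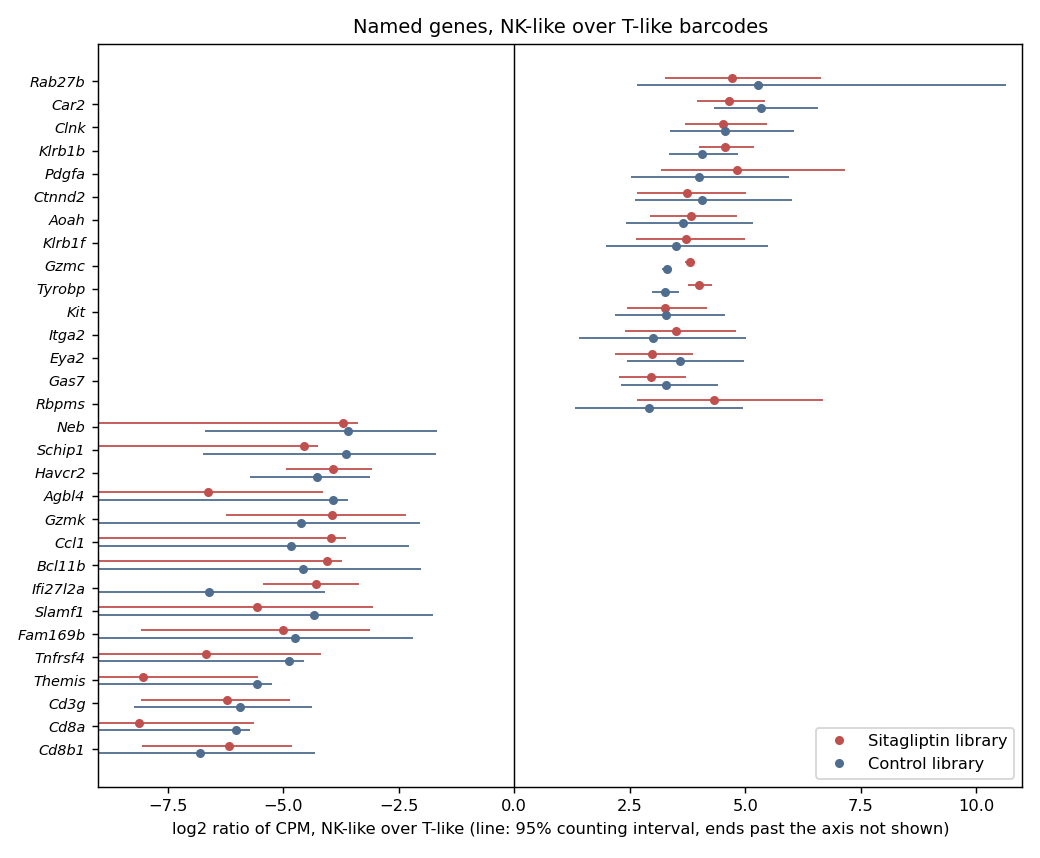
Log2 ratio of NK-like over T-like CPM for the 15 highest and 15 lowest ranked genes, with 95% counting intervals, Sitagliptin above Control in each pair. Both libraries lie on the same side of 0 for every gene drawn, since that was a condition of the ranking, and the intervals are widest where a class held few UMIs (Rab27b, 26.2-fold and 38.7-fold).

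NK-like barcodes varied most among themselves in their granzymes. At 2000 UMIs per barcode Gzmc had a median of 1 UMI in the Sitagliptin library and 12 in the Control library, and it was absent from 60 of 128 (46.9%) and 23 of 81 (28.4%) barcodes. In barcodes high in macrophage genes 2.68% and 3.98% held a Gzmc UMI at that depth. The Fano factor of Gzmc, its variance divided by its mean over barcodes, was 33.5 (Sitagliptin) and 31.7 (Control), against a median of 0.939 over the 3953 genes ranked. Gzmf had 48.5 and 30.2, Gzmb 15.8 in each library, and Gzmd 15.2 and 20.9, and Gzma, Gzme, Gzmg and Ccl5 were also among the 15 most variable genes. Hist1h1b and Hist1h1e, histone genes of replicating cells, were also in that group. Cxcl2 (7.26 and 51.1) and Ccl4 (5.05 and 65.2) were far more variable in the Control library, where a single barcode held most of their UMIs. Genes used to stage NK cell maturation were seen in few thinned barcodes: Cd27 in 6.25% (Sitagliptin) and 9.88% (Control), and Itgam in 5.47% and 6.17%.

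The share of NK cells in a library depended on which set was counted. NK-like barcodes were 1.31% of Sitagliptin barcodes (95% Clopper-Pearson interval 1.09 to 1.56) and 0.932% of Control barcodes (0.741 to 1.16), a ratio of 1.41 (1.07 to 1.86). The Klra4 set went the other way, at 2.85% of Sitagliptin and 5.44% of Control barcodes, a ratio of 0.523 (0.452 to 0.605), as did the whole gate, at 4.31% (3.92 to 4.73) and 6.46% (5.96 to 7.0), a ratio of 0.667 (0.590 to 0.754). NK-like barcodes made up 30.4% of the gate in the Sitagliptin library and 14.4% in the Control library. Of NK-like and T-like barcodes together, NK-like ones were 29.8% (Sitagliptin) and 35.5% (Control), a ratio of 0.838 whose interval of 0.668 to 1.05 includes 1. With Klra4 left out of the gate sum the ratio of the gate share was 1.43, and with every barcode thinned to 2000 UMIs before the gate was applied it was 1.07 (0.845 to 1.36; 148 Sitagliptin and 123 Control members). Magnetic enrichment for CD45 and the minimum of 2001 UMIs per barcode can set such shares.

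Between diets, NK-like barcodes differed little at most genes. Of 4355 genes whose UMIs in the 2 libraries together reached 30, 408 (9.37%) were more than 1.5-fold higher in the Sitagliptin library and 362 (8.31%) more than 1.5-fold lower, with a median log2 ratio of -0.013. The NK genes outside the gate had 2 of 22 higher and 3 lower (median log2 -0.17). Klrd1 stood at 458.5 CPM in Sitagliptin and 455 CPM in Control NK-like barcodes, Klrk1 at 288 and 274 CPM, Il2rb (the shared IL-2 and IL-15 receptor chain) at 464 and 483 CPM, and Tbx21 (T-bet) at 64.3 and 72.4 CPM.

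Granule genes were on balance lower in the Sitagliptin library. Gzmc stood at 10059 CPM in Sitagliptin and 14460 CPM in Control NK-like barcodes, a ratio of 0.696 (0.670 to 0.723), and Prf1 at 452 and 724 CPM, a ratio of 0.624 (0.522 to 0.746). Gzmd stood at 1687 and 2890 CPM, a ratio of 0.584 (0.534 to 0.639), Gzmb at 4029 and 5209 CPM (0.773), Gzme at 946 and 1421 CPM (0.666) and Ctsc, the protease that activates granzymes, at 72.8 and 124 CPM (0.588). Gzma differed less, at 2689 and 2917 CPM (0.922). Gzmf was higher in Sitagliptin, at 1954 and 1466 CPM (1.33), but 321 of its 1155 Sitagliptin UMIs lay in 1 barcode, and without that barcode the ratio was 0.963. Of 17 granule and killing genes measured, 5 were more than 1.5-fold lower and none higher, beside 8.31% lower and 9.37% higher over all genes. The list's median log2 ratio was -0.37, and the medians of its genes' lower and upper 95% bounds (median bounds below) were -0.60 and -0.13. Without the Control barcode holding most of its UMIs, Gzmd was at 0.716. Gzmg, at 0.492 with all barcodes, was then at 1.28. A single barcode held 68 of 471 Control UMIs of Gzme, and another 33 of 240 of Prf1. T-like barcodes, which come from the same 2 libraries, gave ratios of 0.489 for Gzmc, 0.533 for Gzmb, 0.493 for Prf1 and 0.748 for Nkg7, for which the NK-like ratio was 0.761. Of 22 granule genes measured in T-like barcodes 11 were more than 1.5-fold lower in Sitagliptin and none higher, while over all 6296 genes 10.6% were lower and 6.81% higher.

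Of 8 cytokine and chemokine genes measured, 5 were more than 1.5-fold lower in Sitagliptin NK-like barcodes and 1 higher, beside 8.31% lower and 9.37% higher over all genes. The list's median log2 was -0.62 (median bounds -1.09 and 0.012), and several of these differences rested on single barcodes. Ccl4 stood at 89.7 CPM in Sitagliptin and 262 CPM in Control NK-like barcodes, a ratio of 0.342, but 82 of its 87 Control UMIs were in 1 barcode and the ratio without it was 5.95. That barcode, with 2332 UMIs in all, also held the most UMIs of Cxcl2 (61), S100a8 (39), Cxcl3 (26), Il1b (14), Ccl3 (7) and S100a9 (4), chemokine, calprotectin and IL-1 genes that neutrophils and inflammatory macrophages are known for. S100a8 (ratio 0.101) and Cxcl3 (0.187) were among the 12 genes ranked lowest in Sitagliptin, and without that barcode S100a8 had 7 UMIs in Sitagliptin and 0 in Control, and Cxcl3 had 9 and 1. Ifng stood at 28.8 and 99.5 CPM (0.289), with 26 of 33 Control UMIs in another barcode and a ratio of 1.36 without it. Ccl5 was higher in Sitagliptin, at 873 CPM against 510 CPM in Control. The Ccl5 ratio was 1.71 (1.44 to 2.05), and 1.57 without its top barcode. Ccl5 was seen in more barcodes than Ccl4 or Ifng in both libraries, but was still uneven. Its UMIs lay in 52 of 128 Sitagliptin and 17 of 81 Control NK-like barcodes. A single barcode held 43 of 516 Sitagliptin UMIs, and another 33 of 169 Control UMIs. The interval covers counting error alone and leaves out this spread between barcodes. The other genes past 1.5-fold were Flt3l, at 60.9 CPM in Sitagliptin and 103 CPM in Control (0.594), Ltb, at 67.7 and 106 CPM (0.641), and Spp1, at 516 and 784 CPM (0.658), and without the top barcode their ratios were 0.673, 0.724 and 0.900. In T-like barcodes Ccl5 stood at 1211 CPM in Sitagliptin and 1506 CPM in Control.

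Of the remaining genes ranked lowest in Sitagliptin NK-like barcodes, Ero1l, an oxidase of the endoplasmic reticulum that is induced by low oxygen, stood at 118 CPM against 458 CPM in Control, a ratio of 0.258 (0.192 to 0.345) and 0.401 without the Control barcode that held 54 of its 152 UMIs. Lgals3 (galectin 3) stood at 151 and 323 CPM (0.467) and the integrin gene Itgb3 at 134 and 287 CPM (0.466). Gzmg stood at 181 and 368 CPM (0.492), with 75 of 122 Control UMIs in 1 barcode and 1.28 without it. Glycolysis and hypoxia genes had 5 of 18 more than 1.5-fold lower and none higher, beside 8.31% lower and 9.37% higher over all genes. The list's median log2 was -0.35 (median bounds -0.76 and 0.0022). Among the lower ones were Hilpda at 91.4 and 196 CPM (0.466), Ndrg1 at 47.4 and 103 CPM (0.462), Gpi1 at 93.1 and 160 CPM (0.582) and Aldoa at 382 and 576 CPM (0.664), while Ldha stood at 553 and 627 CPM (0.882). T-like barcodes gave 5 of 25 such genes lower and 1 higher (median log2 -0.47), beside 10.6% lower and 6.81% higher over all genes there. In T-like barcodes Aldoa was at 0.456, Ndrg1 at 0.547 and Gpi1 at 0.648. The 8 ILC1 and residency genes measured in NK-like barcodes were all below 1 in Sitagliptin. Of these, 1 was past 1.5-fold, with 8.31% of all genes lower: Itga1 (CD49a) stood at 113 and 190 CPM (0.597). The list's median log2 was -0.45, and its median bounds of -1.15 and 0.26 lay on either side of 0. Tnfrsf9 (4-1BB, a receptor raised on activated lymphocytes) stood at 497 and 845 CPM (0.589).

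Genes higher in Sitagliptin NK-like barcodes were led by Zbed5, with 63 UMIs in Sitagliptin and 0 in Control, at least 11.8-fold higher against a floor of 3 counts over the Control set. Zbed5 was not particular to these barcodes: it had 111 UMIs in Sitagliptin and 0 in Control T-like barcodes, and 126 and 0.880 CPM in barcodes high in macrophage genes. Cdk8, a kinase of the Mediator complex, stood at 2266 CPM in Sitagliptin and 1333 CPM in Control NK-like barcodes (1.70) and Cmss1 at 2682 and 1436 CPM (1.87), and T-like barcodes gave 2.25 and 1.70 for the same genes. The others ranked highest, Pole3, Ctsl, Hells, Senp7, Patl1, Fam76a, Utp20, Eya1 and Ndufaf2, had at most 8 Control UMIs each. Pole3, a DNA polymerase epsilon subunit, had 37 UMIs in Sitagliptin and 4 in Control (5.19, interval 1.86 to 20.04), and Hells, a chromatin remodeller, 51 and 8 (3.58, interval 1.68 to 8.73). For Ctsl, a lysosomal protease, 18 of 40 Sitagliptin UMIs lay in 1 barcode, and the ratio of 4.49 was 2.47 without it.

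**Figure D4:**
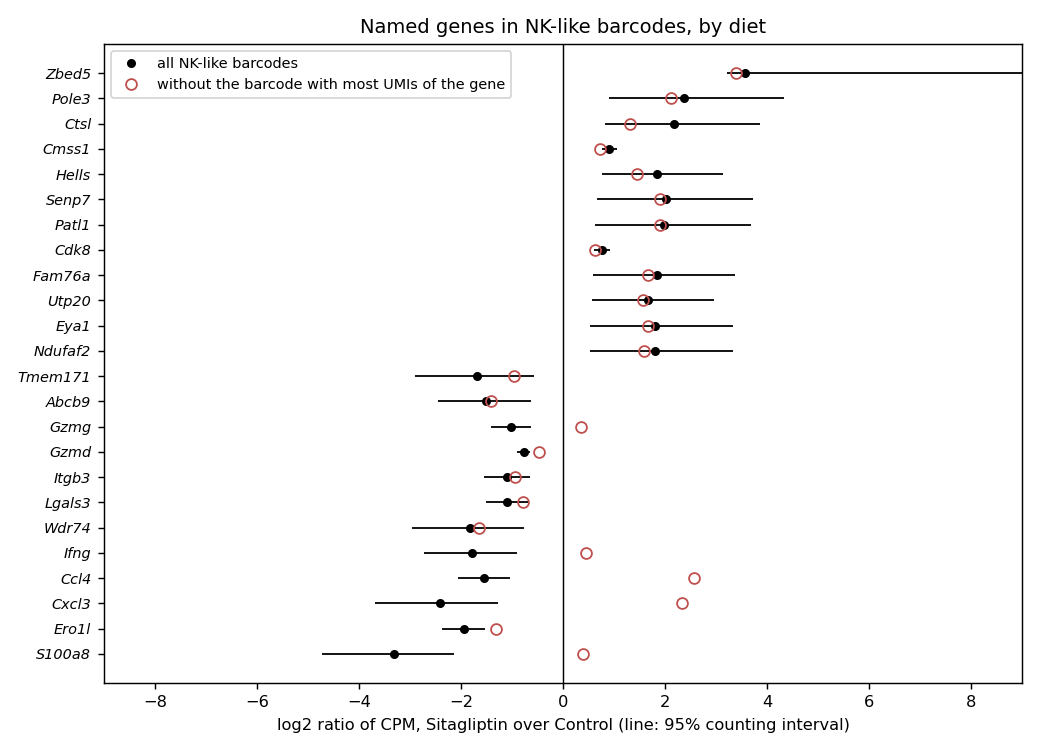
Log2 ratio of Sitagliptin over Control CPM in NK-like barcodes for the 12 highest and 12 lowest ranked genes, with 95% counting intervals, and as open circles the ratio without the barcode holding most UMIs in the library where the gene is higher. The open circles of Ccl4, Cxcl3, S100a8, Ifng and Gzmg lie on the other side of 0 (5.95 for Ccl4 as a ratio), while those of Ero1l (0.401) and Gzmd (0.716) stay below it.

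Among receptors, the Ly49 genes differed in both directions between the diets. Klra8 stood at 211 CPM in Sitagliptin and 81.4 CPM in Control NK-like barcodes, a ratio of 2.60 (1.70 to 4.10), and 2.31 without its top barcode. Klra4 stood at 193 and 103 CPM, a ratio of 1.88 (1.27 to 2.85), and Klra9 at 57.5 and 24.1 CPM, a ratio of 2.38 (1.08 to 5.96). Klra7 was lower, at 162 and 244 CPM (0.665, interval 0.489 to 0.905), as was Ncr1, at 103 and 163 CPM (0.634, interval 0.432 to 0.931). Klra8 and Ncr1 were used to choose the set, and Ly49 genes vary between the NK cells of an animal and between mouse strains. Over all genes 9.37% were more than 1.5-fold higher in Sitagliptin and 8.31% lower, and the small lists here are to be read beside those shares. Of 14 activating receptor and signalling genes, 3 were more than 1.5-fold higher in Sitagliptin and none lower, with Cd247, the zeta chain, at 84.6 and 45.2 CPM (1.87). Of 8 inhibitory receptors 1 was higher and 2 lower, with Tigit at 72.8 and 118 CPM (0.618). Of 12 homing and adhesion genes 3 were higher and 1 lower, with Cd44 at 220 and 139 CPM (1.59). Of 21 transcription factors 3 were higher and none lower, with Bach2, a repressor that keeps lymphocytes from terminal differentiation, at 371 and 241 CPM (1.54) and Eomes at 105 and 118 CPM (0.892).

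The remaining lists are given beside the shares over all genes of 9.37% higher and 8.31% lower. Of 20 cell cycle genes 4 were more than 1.5-fold higher in Sitagliptin and 1 lower (median log2 0.23, median bounds -0.61 and 0.81). Of 15 endoplasmic reticulum stress genes none was higher and 2 were lower, of 15 MHC class I genes 1 was higher and 2 lower, and of 24 oxidative phosphorylation genes 1 was higher. None of the 6 type I interferon response genes measured passed 1.5-fold in either direction. Of 13 cytokine receptors 1 was higher and none lower. Of 5 genes on the list of DPP4, its relatives and its substrates 2 were higher and 2 lower, with Dpp8, a cytosolic relative of DPP4, at 47.4 CPM in Sitagliptin and 87.5 CPM in Control (0.542, interval 0.310 to 0.943). Of 6 macrophage markers outside the gate 2 were higher and 2 lower.

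**Figure D5:**
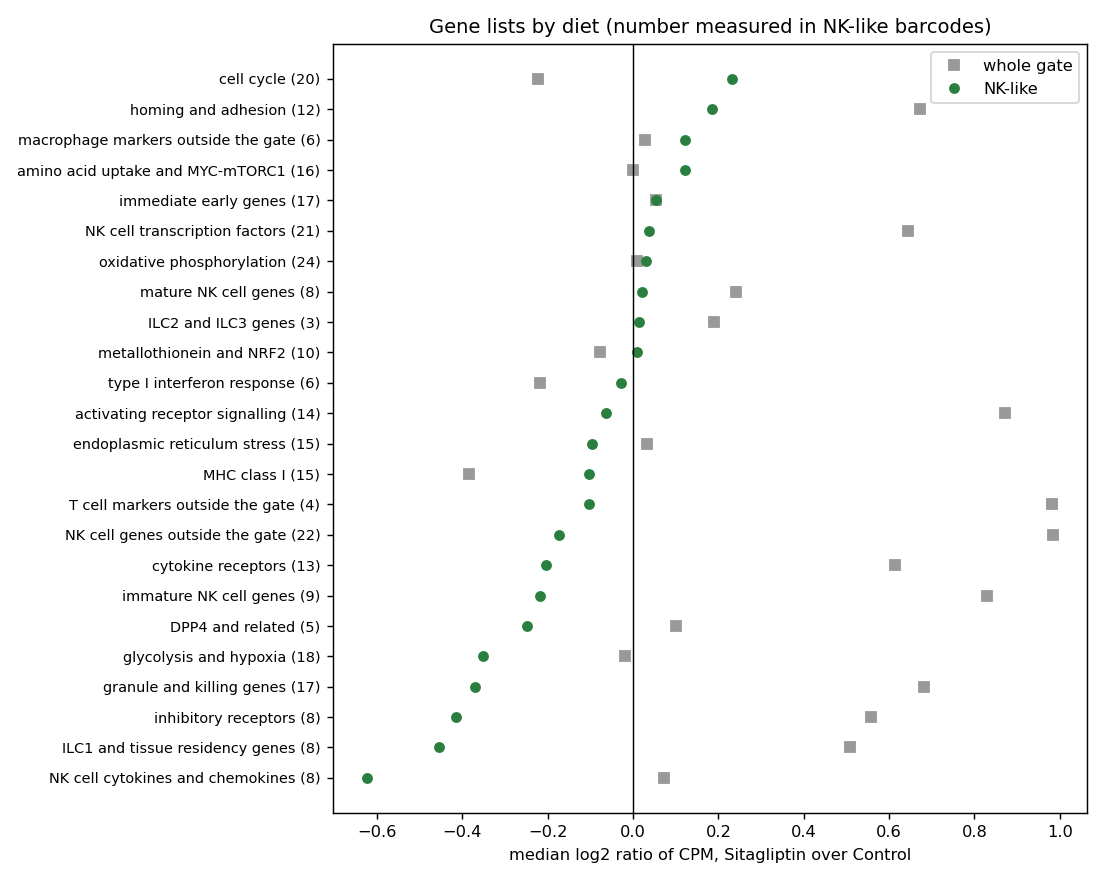
Median log2 ratio of Sitagliptin over Control for each gene list, as circles in NK-like barcodes and as squares in the whole gate. The medians of the NK and granule lists are below 0 in NK-like barcodes (-0.17 and -0.37) and above 0 in the whole gate (0.98 and 0.68).

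In the Klra4 set, where 3.02% of 10964 genes were more than 1.5-fold higher in Sitagliptin and 3.34% more than 1.5-fold lower, antigen presentation genes were lower together. All 13 MHC class I genes measured were below 1 and 5 were past 1.5-fold, with a median log2 of -0.53 (median bounds -0.71 and -0.32). Tapbp, which loads peptides, stood at 77.2 CPM in Sitagliptin and 122 CPM in Control (0.634), Tap1, the peptide transporter, at 54.8 and 84.3 CPM (0.649), H2-K1 at 460 and 608 CPM (0.756) and H2-D1 at 1007 and 1289 CPM (0.781). The interferon-induced GTPase Gbp2 stood at 127 and 217 CPM (0.584). Other interferon-induced genes were higher in Sitagliptin: Ifit3 at 87.3 and 70.7 CPM (1.23), Rsad2 at 31.3 and 19.9 CPM (1.58) and Oasl1 at 8.78 and 3.52 CPM (2.50). Of 26 cell cycle genes, 25 were below 1 and none past 1.5-fold (median log2 -0.23). Mt1, a metal-binding metallothionein, stood at 2452 and 1683 CPM (1.46), Hk2, the first enzyme of glycolysis, at 60.1 and 30.2 CPM (1.99), and Zbed5 at 192 and 3.28 CPM (58.5).

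Taken whole, the gate gave diet ratios of NK and granule genes that ran opposite to those of NK-like barcodes. Of 11374 genes measured, 711 (6.25%) were more than 1.5-fold higher in Sitagliptin members and 352 (3.09%) lower, and 20 of 22 NK genes outside the gate were among the higher ones (median log2 0.98), as were 12 of 21 granule genes (0.68). Ptprc stood at 220 CPM in Sitagliptin and 103 CPM in Control members of the gate, a ratio of 2.14, while in NK-like barcodes it stood at 2073 and 2081 CPM. Gzma stood at 254 and 129 CPM in the gate (1.964) and was at 0.922 in NK-like barcodes. NK-like barcodes were 30.4% of Sitagliptin members and 14.4% of Control members, and the part of that difference in the gate ratios was not tested. With Klra4 left out of the gate sum the NK and granule medians were -0.14 and -0.39. The gate was also set against T barcodes, which were chosen by at least 2 UMIs of Cd3d, Cd3e and Trac. They were selected on NK and macrophage genes too, with at most 1 UMI of the 6 NK gate genes and at most 3 of the 5 macrophage genes. Both sides were thus chosen by genes of these classes, and the ratios describe the choice. Against T barcodes the gate had 2012 of 11045 genes (18.2%) more than 2-fold higher in both libraries and 1359 (12.3%) lower. Of 23 NK genes outside the gate, 15 were among the lower ones (median log2 -2.24). Ltbp1, Tenm3, Sdc2, Col3a1, Gja1 and Crabp1 were among the 15 highest. With Klra4 left out, 200 genes were higher and 274 lower than in T barcodes, and the NK list had a median log2 of 0.65.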

How the data were processed

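Single-cell 5′ RNA libraries were analysed from 2 samples, 1 per diet, each a matrix of UMI counts per gene and barcode. The authors deposited whole-number counts with no normalization, and the kit is as named in the labels' protocols; for the aligner, genome build, annotation and strand setting, the sources used here give no statement. The files list 32285 genes under 32245 symbols, and every deposited barcode holds at least 2001 UMIs. The members and gene lists were chosen with earlier results of these data known, and the division into NK-like barcodes, the Klra4 set and T-like barcodes was made after the values had been seen.

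UMIs were summed over the barcodes of a set and divided by the set's total to give CPM. Ratios have 95% exact conditional binomial intervals, shares have exact Clopper-Pearson intervals, and ratios of shares have Katz log intervals; all cover counting error only. The median bounds beside a list median are the medians of its genes' lower and upper 95% bounds, and are not an interval of the median itself. A sum of 0 UMIs was set to a floor of 3 counts over the set in a ratio. Genes entered diet comparisons with at least 30 UMIs and class comparisons with at least 50. With 1 library per diet no test was made, and "more than 1.5-fold" (diets) and "more than 2-fold" (classes) are thresholds of size.

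Named genes were the 12 highest and 12 lowest by the interval bound nearest to 1 (diets, at least 50 CPM where higher), the 15 highest and 15 lowest by the ratio nearer to 1 of the 2 libraries (classes), and the 15 with the highest lower Fano factor. Mitochondrial, ribosomal, receptor segment, Gm, Rik and gate genes were left out of the rankings. List members were added as examples, and Klra family genes, Klrb1b and genes of single barcodes were also chosen after their values were seen. CPM is a share of UMIs, so one abundant gene lowers the others.

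Scrublet scores were computed with scanpy, but the automatic threshold marked 0 barcodes in either library, so no doublets were removed; leaving out the 6% highest scores was an alternative. The ratio calculation was tested on simulated sums that held counting error alone. They left out the spread between barcodes, so the intervals were not tested under the spread of these data. Promoter sequences came from RefSeq (GRCm38.p6), and shared 60-base windows were counted in a reference transcript set that may differ from the one behind the counts. Python 3.11.15, numpy 2.4.6, scipy 1.17.1, pandas 2.3.3, scanpy 1.11.5 and matplotlib 3.10.9 were used.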

Additional observations from a re-analysis of the deposited data

How the results depend on the processing

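With 1 library per diet, precision is limited by counting within a set and replicate spread is unknown. No paired analysis was possible because each diet has 1 library and the labels carry no replicate numbers. Of the alternatives, those that split the NK-like set and those made on NK-like barcodes were added after seeing the data. For NK-like barcodes, 578 list medians stayed within their median bounds (or, with none, within 1.5-fold), 18 moved further and 3 reversed. Of values of named genes 440 stayed within 1.5-fold of the ratio reported, 82 moved further and 7 reversed, and of shares and counts of genes 37 stayed within the interval or within 1.5 times and 17 moved further. For the whole gate these numbers were 50, 17 and 5 (lists), 506, 129 and 7 (named genes) and 40, 20 and 2 (shares and counts). The cause of each change below was not tested unless the setting itself removes UMIs or genes.

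The gate share ratio of 0.667 was 0.758 with at least 3 NK UMIs, 0.580 with Cd3g, Trbc1 and Trbc2 also at 0, 1.43 without Klra4 and 1.07 on thinned barcodes, and the gate's share of NK and T barcodes (0.733) was 0.610 with no macrophage UMI allowed, 0.666 with Cd3g and Trbc at 0 and 0.900 without Klra4. Genes higher in Sitagliptin gate members (711) were 337 at 100 UMIs and 3336 at 1 UMI, and those lower (352) were 1004 with no macrophage UMI, 886 by mean CPM per barcode, 685 on thinned barcodes, 135 at 100 UMIs and 2242 at 1 UMI. Genes higher in the gate than in T barcodes (2012) were 1270 with no macrophage UMI, 1000 thinned and 200 without Klra4, and those lower (1359) were 643, 624 and 274, and 901 by mean CPM and 7047 at 1 UMI. The tumour and stromal median of the gate over T was -1.94 at 1 UMI. Without Klra4, list medians of the diets were -0.14 (NK genes) and -0.39 (granule), and of the gate over T 0.65 and 0.22. Without Klra4, the gate's log2 diet ratios were -0.047 for Ptprc, -0.064 for Cd52, -0.22 for Gzma, 1.05 for Tubb3, 2.30 for Plk1, 1.89 for Ube2c and 2.93 for Gbp2.

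Genes higher in Sitagliptin NK-like barcodes (408) were 259 with no macrophage UMI, 171 with Cd3g and Trbc at 0, 639 without the Ptprc, Sparc and class II conditions, 249 thinned, 56 at 100 UMIs and 2286 at 1 UMI, and those lower (362) were 233 with Cd3g and Trbc at 0, 224 thinned, 54 at 100 UMIs and 3876 at 1 UMI. Genes higher in NK-like than T-like barcodes (140) were 91 with Cd3g and Trbc at 0, 88 thinned, 83 at 100 UMIs and 1512 at 1 UMI, and those lower (257) were 160 thinned, 154 at 100 UMIs and 417 at 1 UMI. On the log2 scale Gzmg was 1.92 with no macrophage UMI, the cytokine median 0.34 with Cd3g and Trbc at 0, Ctsl -0.43 without the 3 conditions, and, at 1 UMI, the neutrophil median 0.63 and the DPP4 list over T-like 0.16. Without the top barcode S100a8 was at least 0.39 (7 UMIs against a floor of 3 for a Control sum of 0), Cxcl3 2.34 (9 UMIs against 1), Ccl4 2.57, Ifng 0.45 and Gzmg 0.35.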

Other observations

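Groups of genes linked to cell activation and growth showed little difference in NK-like barcodes. Over all genes 9.37% were more than 1.5-fold higher in Sitagliptin and 8.31% lower. Of 17 immediate early genes measured 2 were more than 1.5-fold higher in Sitagliptin and none lower (median log2 0.053): Dusp1, a MAP kinase phosphatase, stood at 57.5 CPM in Sitagliptin and 30.2 CPM in Control, and Ier5 at 54.1 and 30.2 CPM, each on 10 Control UMIs. Fos stood at 201 and 187 CPM and Junb at 296 and 341 CPM. Of 16 genes of amino acid uptake and of the MYC and mTORC1 growth programmes none passed 1.5-fold (median log2 0.12), with Ncl (nucleolin) at 995 CPM in Sitagliptin and 802 CPM in Control and Npm1 at 849 and 860 CPM. Of 12 genes of type 2 and type 3 innate lymphoid cells only Ahr, Areg and Ncoa7 had enough UMIs to be measured, and Areg stood at 30.5 and 57.3 CPM on 18 and 19 UMIs.

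The gate also passed over barcodes with NK genes. At least 2 UMIs of the 5 genes other than Klra4 were found in 70 Sitagliptin and 61 Control barcodes with more than 3 macrophage gene UMIs and no T cell gene UMI, and in 61 and 50 barcodes with a T cell gene UMI and at most 3 macrophage gene UMIs. Of the members, 76 (Sitagliptin) and 37 (Control) held 3 or more distinct gate genes. Among the 6% of barcodes with the highest doublet scores were 10 and 11 members, of which 3 and 0 were NK-like.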
